A study of Homo sapiens with 8 samples.

Results

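The genes described here are 31 listed enzymes and enzyme subunits of the tricarboxylic acid (TCA) cycle, of pyruvate entry into it and of the redox shuttles that link it to the cytosol. They were chosen by name, with earlier results of these data known. All 31 were found among the 62826 genes of the gene tables. LUHMES cells, a human mesencephalic line immortalised with a tetracycline-controlled v-myc, were of wild-type genotype and had been differentiated for 6 days in medium with dbcAMP, GDNF and tetracycline. Treated cells then received antimycin A at 25 µM, which inhibits respiratory complex III, together with oligomycin at 10 µM, which inhibits the ATP synthase, for 8 h. Vehicle cells received DMSO for the same time. There were 4 treated and 4 vehicle libraries of mRNA, carrying differentiation numbers 2 to 5 in each group, and the series text calls the batches independent. The treated titles and the series text also speak of technical replicates, 4 to a batch, whereas the tables hold 1 library for each number and group. Neither says how the technical replicates were combined. A single cell line limits both groups as a model of neurons.

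Pyruvate enters the mitochondrial matrix and is turned into acetyl-CoA by the pyruvate dehydrogenase complex, and the TCA cycle oxidises the acetyl group while handing electrons to NAD+ and to the respiratory chain. Succinate dehydrogenase sits in both pathways, since it is a cycle enzyme and respiratory complex II. Carboxylases and malic enzymes add to or draw from the cycle, and the malate-aspartate and glycerol-3-phosphate shuttles carry cytosolic reducing equivalents to the mitochondria, on which neurons with high ATP demand rely.

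The libraries held 93.7 to 110.0 M estimated reads. Vehicle replicate 2 stood apart, with 11.5% of its reads on mRNAs of mitochondrial DNA, against 2.14 to 2.90% in treated libraries and 3.27 to 4.33% in the other vehicle libraries. Mitochondrial DNA took 30.2% of its TPM, against 10.3 to 13.8% in treated libraries and 10.3 to 13.0% in the other vehicle libraries. The TPM of the 31 enzymes summed to 2168 to 2260 in treated libraries, to 1858 in vehicle replicate 2 and to 2468 to 2602 in the other vehicle libraries. Calls of enzyme genes that changed without it are named below. Of 6 neuronal markers, 1 was higher and 4 were lower in treated cells, and they summed to 3956 to 4015 CPM (reads relative to the scaled size of a library) in treated and 4799 to 5124 CPM in vehicle libraries. SLC6A3, the dopamine transporter, stood at 326 ± 16.9 TPM in treated and 366 ± 51.5 TPM in vehicle cells (SD, n = 4 each). TPM is a transcript level per length. Of 5 tested dopaminergic markers, 1 was higher and 1 lower. TH, tyrosine hydroxylase, averaged 24.9 ± 3.79 TPM in treated and 10.6 ± 2.49 TPM in vehicle cells (1.04 as a log2 fold change, treated over vehicle, edgeR adjusted p = 0.00039). DDC, the decarboxylase after it, averaged 0.247 ± 0.021 TPM in treated and 0.518 ± 0.131 TPM in vehicle cells and was lower (edgeR adjusted p = 0.0013). The list of 7 summed to 494 to 658 CPM in treated and 526 to 687 CPM in vehicle libraries, most of it SLC6A3. In this list LMX1A had no read in any library and SLC18A2 and PITX3 had 3 to 18 reads per library, so the labelled dopaminergic identity rested on part of its markers. All 5 markers of dividing cells were lower in treated cells, their summed level lying at 189 to 213 CPM in treated and 267 to 368 CPM in vehicle libraries. The astrocyte list summed to 28.4 to 30.2 CPM in treated and 2.73 to 3.71 CPM in vehicle libraries, almost all of it SLC1A3, while its defining markers GFAP and AQP4 had 0 to 5 reads per library. The oligodendrocyte list summed to 3.47 to 4.62 CPM in treated and 2.57 to 4.65 CPM in vehicle libraries. The 3 microglial markers summed to at most 0.146 CPM, and the fibroblast list to 4.44 to 6.26 CPM in treated and 3.32 to 4.18 CPM in vehicle libraries. For comparison, 27.7% of all genes tested were higher in treated cells and 30.2% were lower. The part of these marker changes in the results below was not tested.

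The enzyme genes moved in both directions and mostly by little. Of 30 tested genes, 10 were higher and 10 lower in treated cells, and 10 did not pass the threshold, a Benjamini-Hochberg adjusted p of 0.05 in edgeR's quasi-likelihood test. Over all 19785 genes tested, 57.9% passed, 27.7% higher and 30.2% lower, so a share of 66.7% among the enzymes was near the background. The libraries of the groups did not overlap for 22 of the 30 genes, or 73.3%, against 53.4% of all genes. The median log2 fold change (treated over vehicle) was -0.03 among the enzymes and -0.02 over all genes tested. For 26 of the 30 genes the log2 fold change was under 0.6 in size, and only PCK2 and ME1 passed the threshold with one of at least 1. Fewer cells of a type and less RNA per cell cannot be told apart in these bulk libraries.

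**Figure D1:**
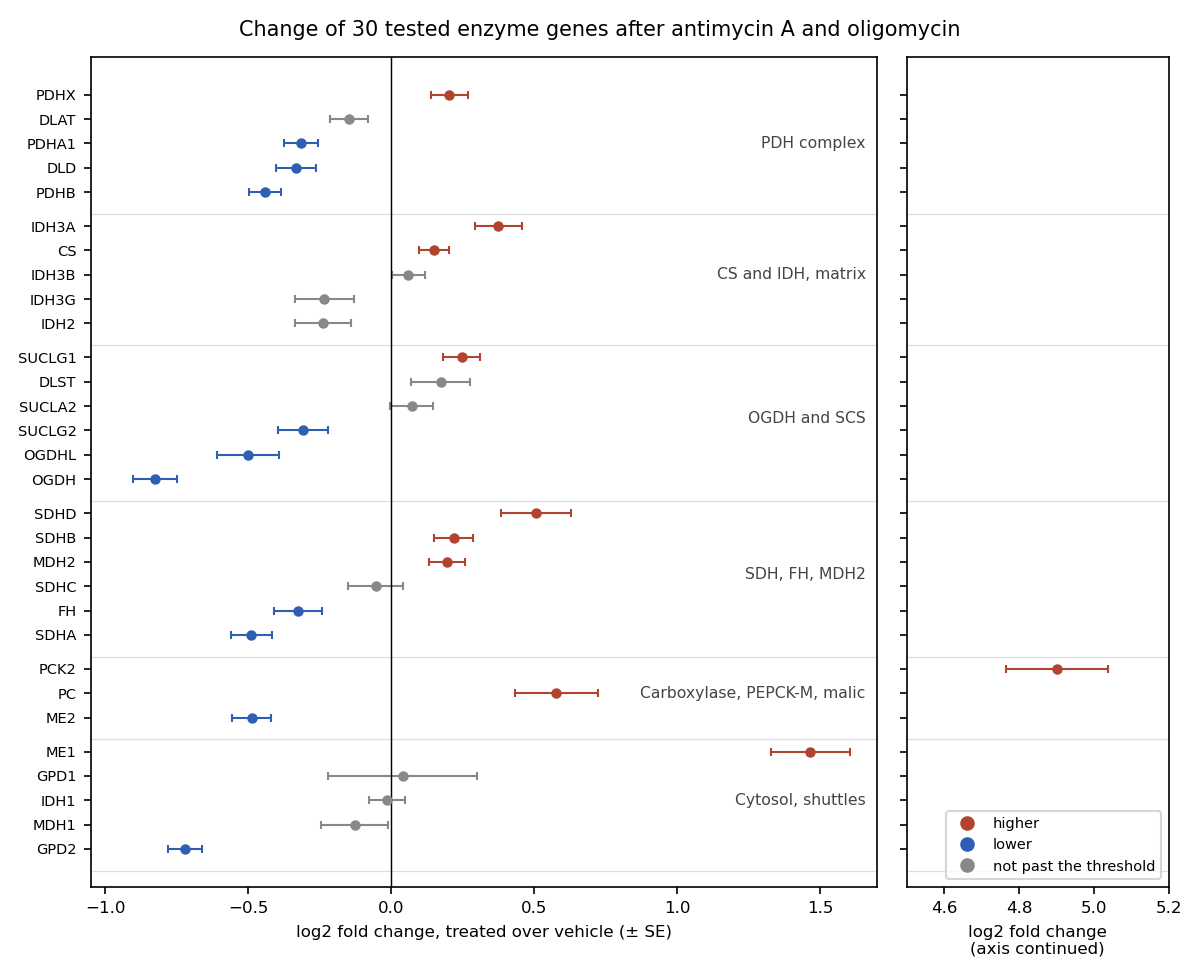
Log2 fold change of each tested enzyme gene, treated over vehicle, with its standard error as a bar, in blocks by role (PDH, pyruvate dehydrogenase; CS, citrate synthase; IDH, isocitrate dehydrogenases; SCS, succinyl-CoA ligases; PEPCK-M, mitochondrial PEP carboxykinase). The x axis is broken between the panels, with PCK2 at 4.90 in the right panel, and the other genes lie between -0.82 and 1.47.

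Both genes with the largest rises encode enzymes beside the cycle. PCK2, the mitochondrial phosphoenolpyruvate carboxykinase, which draws oxaloacetate from the cycle, had 34.1, 30.2, 29.7 and 25.0 CPM in treated libraries, against 0.937, 1.20, 0.942 and 0.890 CPM in vehicle libraries, in the order of differentiation numbers 2 to 5 used throughout. The lowest treated library thus stood far above the highest vehicle library. The difference was 4.90 ± 0.14 (log2 fold change ± SE, edgeR adjusted p = 3.6e-09), a 29.9-fold rise. By level, PCK2 was the twenty-ninth of the 31 enzymes in vehicle cells, at 1.02 ± 0.21 TPM, and the twenty-fourth in treated cells, at 30.2 ± 2.70 TPM.

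ME1, the cytosolic malic enzyme, which makes NADPH from malate, had 21.4, 21.4, 18.6 and 21.1 CPM in treated libraries, against 8.73, 8.91, 5.88 and 6.40 CPM in vehicle libraries. The groups did not overlap, and differentiation number 4 was the lowest in each of them. The difference was 1.47 ± 0.14 (edgeR adjusted p = 1.2e-05). ME2, the mitochondrial NAD-dependent malic enzyme, moved the other way, with 49.4, 49.2, 50.6 and 53.2 CPM in treated libraries, against 78.8, 67.4, 67.9 and 69.9 CPM in vehicle libraries (-0.49 ± 0.07, edgeR adjusted p = 0.00016). The TPM ratio of ME1 to ME2, which does not depend on how libraries are scaled to each other, was 0.351 ± 0.037 in treated and 0.088 ± 0.018 in vehicle libraries. ME3, the mitochondrial NADP-dependent malic enzyme, had 2, 1, 1 and 0 reads in treated and 0, 1, 2 and 4 reads in vehicle libraries and was not tested.

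**Figure D2:**
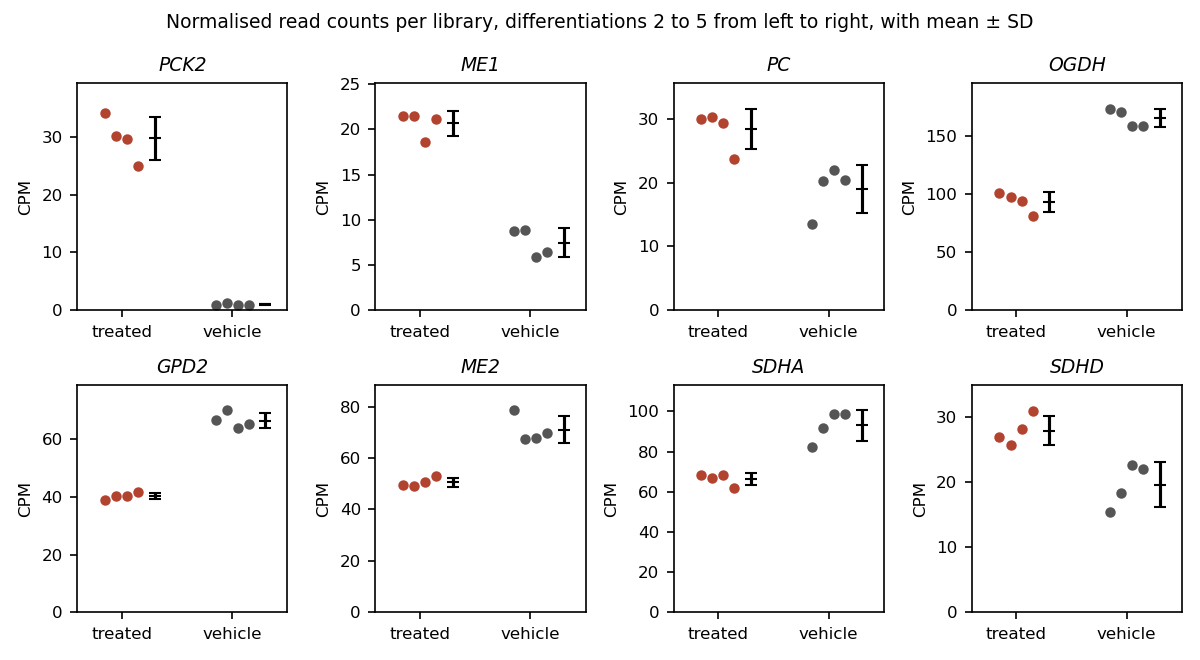
CPM of 8 enzyme genes in each library, treated left (red) and vehicle right (grey), with the mean and SD (n = 4) beside the points. The groups do not overlap in any panel. The fold difference between them is largest for PCK2, at a mean of 29.8 CPM in treated against 0.993 CPM in vehicle libraries.

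Bases before the RefSeq starts of these genes are shown because their transcripts rose most, and the letters looked for are those of an element read by stress-induced transcription factors of the C/EBP and ATF families (TGATGNAA) and of the antioxidant response element (TGACNNNGC), each on both strands. The sequences are the 250 bases before the RefSeq start of the gene (GRCh38.p14), 5′ to 3′ on the gene's strand, with a match in capitals. PCK2 lies on chromosome 14 (24094053 to 24110598, + strand, hg38) and its window at chr14:24094061-24094310, so this window lies inside the GENCODE span of the gene, and bases upstream of that span were not searched. ME1 lies on chromosome 6 (83210389 to 83431071, - strand) and its window at chr6:83431052-83431301.
PCK2: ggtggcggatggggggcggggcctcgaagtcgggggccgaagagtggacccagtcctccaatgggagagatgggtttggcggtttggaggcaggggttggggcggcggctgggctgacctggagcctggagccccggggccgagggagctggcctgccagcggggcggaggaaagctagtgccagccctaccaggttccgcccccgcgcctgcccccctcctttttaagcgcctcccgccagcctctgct
ME1: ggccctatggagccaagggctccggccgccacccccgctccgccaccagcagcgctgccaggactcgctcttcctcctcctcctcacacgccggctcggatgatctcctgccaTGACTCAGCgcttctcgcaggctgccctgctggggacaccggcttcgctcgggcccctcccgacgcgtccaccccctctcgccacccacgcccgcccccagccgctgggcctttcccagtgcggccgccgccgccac
The ME1 window held TGACTCAGC, whose first base lies 137 bases before the start, and these letters of the PCK2 window held no match to TGATGNAA. Among 35116 RefSeq promoter windows, which run from 250 bases before to 50 bases after a start, 13.3% held TGACNNNGC and 3.62% held TGATGNAA. For 28 of the 31 enzymes 38 such windows were at hand, since some genes have several starts. Of the 38 windows, 6 held TGACNNNGC, or 15.8%, and 0 held TGATGNAA. The 6 windows belong to 5 genes (IDH1, IDH3G, ME1, OGDHL and SUCLG1). A match describes the letters and is no evidence of binding.

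PC, pyruvate carboxylase, which refills oxaloacetate, was higher in treated cells, with 30.1, 30.3, 29.4 and 23.8 CPM in treated libraries, against 13.5, 20.3, 21.9 and 20.4 CPM in vehicle libraries (0.58 ± 0.14, edgeR adjusted p = 0.0062). The groups did not overlap, although the lowest treated library was close to the highest vehicle one. Vehicle replicate 2 was the lowest, and without it the difference was 0.44 (edgeR adjusted p = 0.0018). LRFN4, on the opposite strand over PC, averaged 773 reads in treated and 1875 in vehicle libraries, while PC itself averaged 2764 reads in treated and 2021 in vehicle libraries. The sources used here do not say whether reads were counted by strand.

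Transcripts of most subunits of the pyruvate dehydrogenase complex were lower. Of its 5 genes, 3 were lower, 1 was higher and 1 did not pass. Of all genes tested, 27.7% were higher and 30.2% lower. PDHB, the beta subunit of the E1 component, had 46.1, 45.9, 46.7 and 49.0 CPM in treated libraries, against 64.3, 60.9, 65.4 and 64.2 CPM in vehicle libraries (-0.44 ± 0.06, edgeR adjusted p = 8.6e-05). PDHA1, its X-linked catalytic alpha subunit, averaged 90.0 ± 2.35 CPM in treated and 112 ± 6.22 CPM in vehicle libraries (-0.31). DLD, the lipoamide dehydrogenase that this complex shares with that of 2-oxoglutarate, averaged 89.2 ± 7.81 CPM in treated and 112 ± 2.90 CPM in vehicle libraries (-0.33). None of these 3 genes overlapped between the groups, and neither did 53.4% of all genes tested. LAMB1, on the opposite strand over part of DLD, averaged 8319 reads in treated and 9939 in vehicle libraries. DLD itself averaged 8685 reads in treated and 11795 in vehicle libraries, so its fall shares the limit of unknown strand counting.

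PDHX, the subunit that binds DLD to the core, was higher, at 35.8 ± 2.28 CPM in treated and 31.1 ± 0.747 CPM in vehicle libraries (0.20, edgeR adjusted p = 0.022), a call that 6 of 17 alternative analyses did not give. PDHX overlaps APIP on the opposite strand, which averaged 1114 reads in treated and 764 in vehicle libraries. DLAT, the E2 core, averaged 58.5 ± 4.13 CPM in treated and 64.8 ± 1.97 CPM in vehicle libraries, with overlap (-0.15, edgeR adjusted p = 0.078). Without vehicle replicate 2, DLAT was lower (-0.16, edgeR adjusted p = 0.043), and it also passed in 3 other alternatives (library totals, protein-coding genes only, and without treated replicate 5). The TPM ratio of PDHX to PDHA1 was 0.258 to 0.302 in treated and 0.191 to 0.223 in vehicle libraries, without overlap. That of PDHB to PDHA1 was 0.502 to 0.560 in treated and 0.478 to 0.619 in vehicle libraries and overlapped.

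Around the complex, a list of 11 genes covered pyruvate import, lactate dehydrogenase and the kinases and phosphatases of the complex. Of these, 2 were higher and 6 lower, against 27.7% higher and 30.2% lower over all genes tested. Their median log2 fold change was -0.24, against -0.02 over all genes tested. PDP1, a phosphatase that activates the complex, was lower at 28.9 ± 2.93 CPM in treated and 45.9 ± 1.93 CPM in vehicle libraries (-0.67), and PDK2, a kinase that inactivates it, at 25.5 ± 3.35 CPM in treated and 40.6 ± 4.91 CPM in vehicle libraries (-0.67). PDPR, the regulatory subunit of the phosphatase, fell by 0.34, while the second phosphatase PDP2 rose by 0.49. MPC1, a subunit of the pyruvate carrier, differed by 0.18 (adjusted p = 0.025), and this call was lost in 7 alternatives. Of 4 genes of lipoate synthesis, the cofactor of DLAT and DLST, only LIPT2, an octanoyl transferase, passed, with 1.68 ± 0.210 CPM in treated and 5.18 ± 0.118 CPM in vehicle libraries (-1.63), and the median of the 4 was -0.04.

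Transcripts for the first steps of the cycle changed little. CS, citrate synthase and the most abundant of the enzymes at 257 ± 2.69 TPM in treated and 240 ± 27.1 TPM in vehicle cells, had 351, 349.8, 353 and 339 CPM in treated libraries, against 323, 302, 318 and 312 CPM in vehicle libraries (0.15 ± 0.05, edgeR adjusted p = 0.032). The groups did not overlap, but the call was lost in 10 of 17 alternatives. Among the subunits of the NAD-dependent isocitrate dehydrogenase, the catalytic IDH3A was higher, with 45.1, 45.7, 50.9 and 51.9 CPM in treated libraries, against 41.3, 33.6, 36.4 and 38.1 CPM in vehicle libraries (0.37 ± 0.08, edgeR adjusted p = 0.0028). IDH3B averaged 62.0 ± 2.82 CPM in treated and 59.4 ± 0.905 CPM in vehicle libraries, and did not pass. IDH3G averaged 26.4 ± 3.07 CPM in treated and 31.1 ± 3.34 CPM in vehicle libraries, and did not pass either. IDH3G nonetheless did not overlap, with 22.0 to 29.2 CPM in treated and 29.3 to 36.1 CPM in vehicle libraries.

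The TPM ratio of IDH3A to IDH3B was 0.491 ± 0.053 in treated and 0.370 ± 0.026 in vehicle libraries, and that of IDH3G to IDH3B was 0.414 ± 0.016 in treated and 0.501 ± 0.041 in vehicle libraries, both without overlap, so the subunits of this enzyme shifted against each other. CIB2, on the opposite strand over part of IDH3A, averaged 3039 reads in treated and 2793 in vehicle libraries, and SSR4, over part of IDH3G, 9662 in treated and 7782 in vehicle libraries. IDH2, the NADP-dependent enzyme of the matrix, averaged 53.0 ± 4.81 CPM in treated and 62.5 ± 7.20 CPM in vehicle libraries (-0.24, edgeR adjusted p = 0.060), and without vehicle replicate 2 it was lower by the same test (-0.32, edgeR adjusted p = 0.0046). ACO1, the cytosolic aconitase, was the only gene past the threshold among 6 tested genes of aconitase and citrate use, at 32.3 ± 1.52 CPM in treated and 44.7 ± 4.27 CPM in vehicle libraries (-0.47). The median of these 6 genes was -0.05. For comparison, 57.9% of all genes tested passed the threshold.

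At the 2-oxoglutarate step the E1 subunits were lower and the E2 subunit did not pass. OGDH, the E1 subunit of the 2-oxoglutarate dehydrogenase complex, had 100.6, 97.4, 94.0 and 80.8 CPM in treated libraries, against 173, 170.3, 158 and 159 CPM in vehicle libraries. The groups lay far apart, and the fall of 0.82 ± 0.08 on the log2 scale was the largest among the enzymes (edgeR adjusted p = 1.1e-05). OGDHL, the related E1 subunit that brain expresses, was scarce, with 4.29, 4.01, 4.04 and 3.53 CPM in treated libraries, against 4.66, 5.94, 6.08 and 5.75 CPM in vehicle libraries (-0.50 ± 0.11, edgeR adjusted p = 0.0029). DLST, the E2 subunit, had 118, 117, 114 and 114 CPM in treated libraries, against 79.1, 109, 111 and 113 CPM in vehicle libraries. It did not pass (0.17 ± 0.10, adjusted p = 0.18), and its difference was 0.06 without vehicle replicate 2, the low library.

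The TPM ratio of DLST to OGDH was 2.00, 2.06, 2.03 and 2.30 in treated libraries, against 0.925, 0.958, 1.08 and 1.09 in vehicle libraries. Transcripts of E2 were thus about as abundant as those of E1 in vehicle cells and outnumbered them in every treated library. Succinyl-CoA ligase is made of the common subunit SUCLG1 with either SUCLA2, which uses ADP, or SUCLG2, which uses GDP. SUCLG1 was higher, with 53.4, 51.7, 56.0 and 59.4 CPM in treated libraries, against 44.9, 45.5, 48.1 and 47.4 CPM in vehicle libraries (0.25 ± 0.06, edgeR adjusted p = 0.0076). SUCLG2 was lower, at 10.6 ± 0.173 CPM in treated and 13.1 ± 1.5 CPM in vehicle libraries (-0.31), and SUCLA2 averaged 48.5 ± 3.75 CPM in treated and 46.1 ± 2.83 CPM in vehicle libraries and overlapped. The TPM ratio of SUCLG1 to SUCLG2 was 10.6 ± 0.470 in treated and 7.17 ± 1.00 in vehicle libraries, without overlap.

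**Figure D3:**
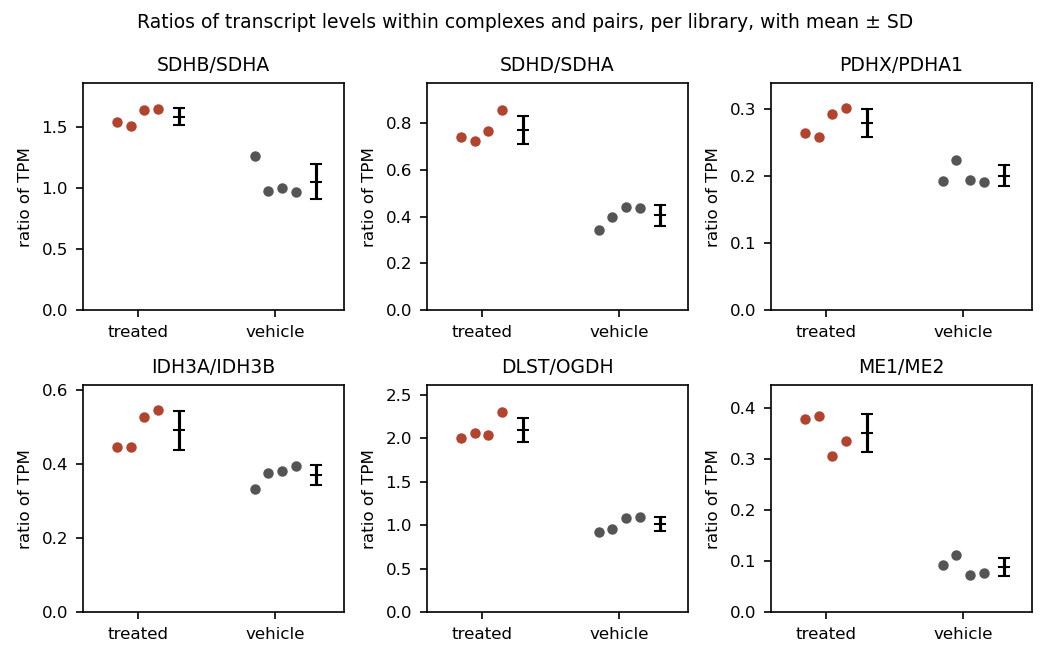
Ratio of TPM between members of a complex or an enzyme pair in each library, treated left (red) and vehicle right (grey), with the mean and SD (n = 4). The groups do not overlap in any of the 6 panels, and the ratio of DLST to OGDH lies at 2.00 to 2.30 in treated against 0.925 to 1.09 in vehicle libraries.

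The subunits of succinate dehydrogenase did not move together. SDHD, a membrane anchor, had 26.9, 25.6, 28.2 and 30.9 CPM in treated libraries, against 15.4, 18.3, 22.7 and 22.1 CPM in vehicle libraries (0.51 ± 0.12, edgeR adjusted p = 0.0048). SDHB, the iron-sulphur subunit, averaged 38.0 ± 1.56 CPM in treated and 32.6 ± 2.03 CPM in vehicle libraries (0.22, edgeR adjusted p = 0.018), a call lost in 4 of 17 alternatives. SDHC, the other anchor, averaged 59.2 ± 2.23 CPM in treated and 61.5 ± 8.46 CPM in vehicle libraries and did not pass. Without vehicle replicate 2, the low library at 49.0 CPM, SDHC was lower in treated cells (-0.15, edgeR adjusted p = 0.027).

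SDHA, the flavoprotein subunit, had 68.2, 66.6, 68.3 and 62.0 CPM in treated libraries, against 82.5, 91.8, 98.9 and 98.9 CPM in vehicle libraries (-0.49 ± 0.07, edgeR adjusted p = 0.00025). This value depends on how reads were divided between SDHA and its pseudogenes. The 6 identifiers named as SDHA pseudogenes summed to 103 ± 2.96 CPM in treated and 85.4 ± 3.45 CPM in vehicle libraries. With them added, SDHA averaged 169 ± 4.80 CPM in treated and 178 ± 6.67 CPM in vehicle libraries, and the difference did not pass (-0.08, edgeR adjusted p = 0.24). The ratios to SDHA share this limit. For SDHB over SDHA the TPM ratio was 1.59 ± 0.070 in treated and 1.05 ± 0.143 in vehicle libraries, and for SDHD over SDHB, which is free of it, 0.467 to 0.518 in treated and 0.271 to 0.450 in vehicle libraries. TIMM8B, which overlaps SDHD on the opposite strand, averaged 2646 reads in treated and 3407 in vehicle libraries. Of 4 assembly factors of this enzyme, SDHAF1 was higher (0.62) and SDHAF2 (-0.53) and SDHAF3 (-0.46) were lower, with a median of -0.12 over the 4. Of all genes tested, 27.7% were higher and 30.2% lower.

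Transcripts for the last steps of the cycle went apart too. FH, fumarase, had 53.3, 54.5, 57.4 and 61.4 CPM in treated libraries, against 62.0, 69.2, 75.1 and 77.7 CPM in vehicle libraries (-0.33 ± 0.08, edgeR adjusted p = 0.0066). The highest treated library lay just under the lowest vehicle library, replicate 2. MDH2, the malate dehydrogenase of the matrix, averaged 189 ± 9.77 CPM in treated and 165 ± 8.67 CPM in vehicle libraries (0.19, edgeR adjusted p = 0.024), and its call was lost in 6 of 17 alternatives.

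**Figure D4:**
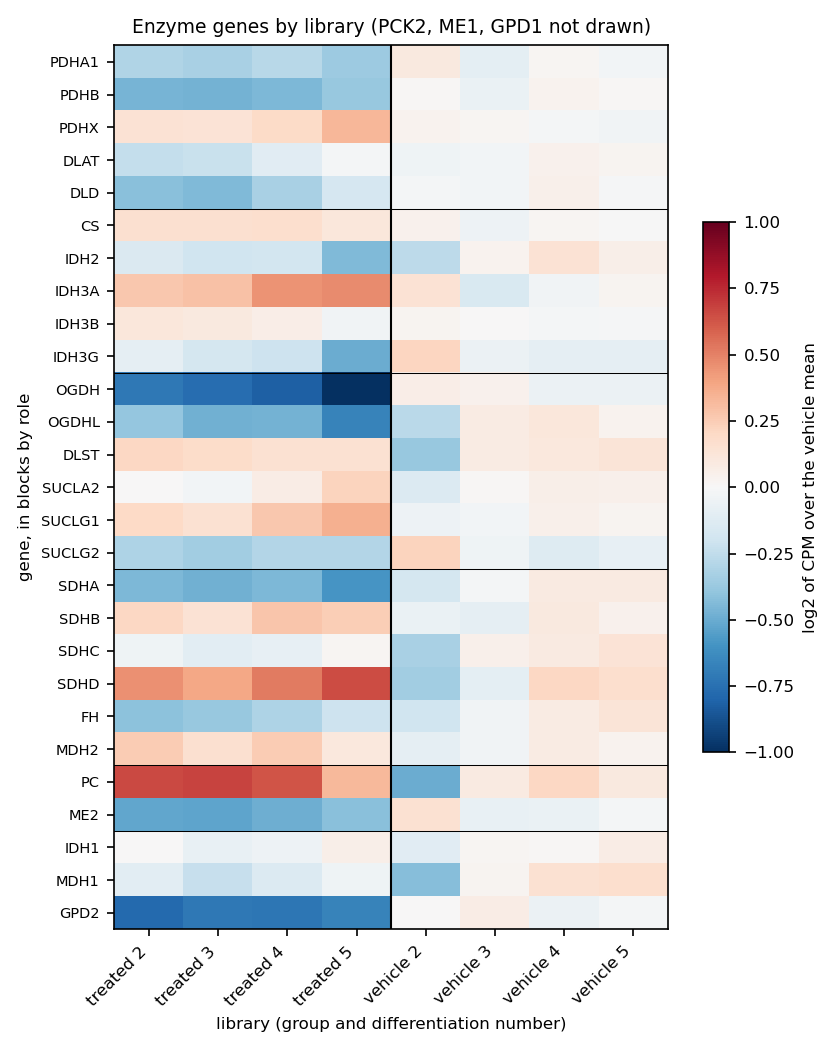
Log2 of each library's CPM over the vehicle mean for 27 tested enzyme genes, in blocks by role, with treated libraries left and vehicle libraries right. Treated libraries show rises (red) and falls (blue) within the same blocks. Vehicle replicate 2 departs from the other vehicle libraries for several genes, for example lower for DLST, MDH1, PC and SDHC and higher for IDH3G.

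Among the shuttle enzymes, the glycerol-3-phosphate shuttle lost transcripts at its mitochondrial end. GPD2, the flavoprotein dehydrogenase of the inner membrane, had 38.8, 40.4, 40.2 and 41.7 CPM in treated libraries, against 66.5, 69.9, 63.8 and 65.3 CPM in vehicle libraries (-0.72 ± 0.06, edgeR adjusted p = 3.9e-06). Both groups were tight and did not overlap. GPD1, its cytosolic partner, had only 21, 18, 22 and 11 reads in treated and 20, 14, 20 and 21 reads in vehicle libraries (0.04 ± 0.26, edgeR adjusted p = 0.91), and no difference was detectable at this depth.

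The abundant cytosolic enzymes MDH1 and IDH1 did not pass. MDH1, the cytosolic malate dehydrogenase, had 98.4, 90.2, 96.0 and 102 CPM in treated libraries, against 78.9, 108, 117 and 119 CPM in vehicle libraries (-0.13 ± 0.12, adjusted p = 0.38). Every treated library lay between vehicle replicate 2 and the other vehicle libraries, and without that library MDH1 was lower in treated cells (-0.25, edgeR adjusted p = 0.0052). IDH1, the cytosolic NADP-dependent isocitrate dehydrogenase, averaged 241 ± 10.3 CPM in treated and 244 ± 13.1 CPM in vehicle libraries (-0.01 ± 0.06, adjusted p = 0.86).

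Over all genes tested, 27.7% were higher and 30.2% lower, with a median log2 fold change of -0.02. Of 6 partner genes of the malate-aspartate shuttle, 2 were higher and 1 was lower, with a median log2 fold change of -0.17. GOT1, the cytosolic aspartate aminotransferase, averaged 92.1 ± 4.48 CPM in treated and 48.7 ± 6.16 CPM in vehicle libraries (0.92), whereas its mitochondrial counterpart GOT2 averaged 104 ± 3.26 CPM in treated and 147 ± 10.4 CPM in vehicle libraries (-0.50). The aspartate-glutamate carrier SLC25A12 differed by 0.20 (adjusted p = 0.024), a call lost in 7 alternatives. Among 13 genes of glutamine entry and of side reactions of the cycle, 1 was higher and 9 were lower. Their median log2 fold change was -0.49, against the -0.02 over all genes tested. ALDH5A1, which feeds the GABA carbon skeleton into succinate, averaged 4.30 ± 0.257 CPM in treated and 12.6 ± 0.420 CPM in vehicle libraries (-1.55). OXCT1, which activates ketone bodies with succinyl-CoA, averaged 11.3 ± 1.09 CPM in treated and 25.7 ± 0.365 CPM in vehicle libraries (-1.19). DHTKD1, an E1 subunit akin to OGDH, averaged 42.2 ± 0.470 CPM in treated and 66.0 ± 4.82 CPM in vehicle libraries (-0.65). PCK1, the cytosolic counterpart of PCK2, had 89, 74, 110 and 73 reads in treated and 0, 2, 1 and 1 reads in vehicle libraries.

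In MDH1 and IDH1, which did not pass as genes, a minor transcript took a larger share in treated cells. Of 28 enzyme genes with 2 or more well-read transcripts, which had at least 10 reads in at least 4 libraries, 3 passed the usage test of edgeR, against 7.32% of 11747 genes. In MDH1, the transcript MDH1-202 held 8.60, 7.70, 12.3 and 12.2% of the gene's TPM in treated libraries, against 0.0963, 0.817, 1.07 and 0.340% in vehicle libraries (edgeR adjusted p of the gene = 1.3e-07). Its level was 17.0 ± 4.82 TPM in treated and 1.16 ± 0.930 TPM in vehicle libraries. In IDH1, the transcript IDH1-202 held 3.73, 3.58, 3.29 and 3.43% in treated libraries, against 0.514, 0.336, 0.348 and 0.341% in vehicle libraries (edgeR adjusted p of the gene = 1.7e-06). Both genes passed in all 13 alternative usage analyses, and neither pair of groups overlapped.

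MDH1-202 joins the first exon of MDH1 to its exon 5 (chromosome 2, + strand, 63599170 to 63599292, hg38). It leaves out exons 2 to 4 (63594488 to 63594586, 63595423 to 63595519 and 63597399 to 63597574), which are 372 bases long together, a multiple of 3. Its annotated coding length is 630 bases, against 1002 for the full-length MDH1-201. The first 30 coding bases of both, from GENCODE release 29 transcripts, show the junction, with the bases from the first exon in capitals.
MDH1-202: ATGgttattgttgtgggtaatccagccaat
MDH1-201: ATGtctgaaccaatcagagtccttgtgact
MDH1-201 and MDH1-215 had the same length and identical shares in every library, so they could not be told apart, and each held 41.7 ± 1.43% in treated and 47.2 ± 0.510% in vehicle libraries. IDH1-202 starts in a longer form of an early IDH1 exon (chromosome 2, - strand, 208253886 to 208254339, against 208253886 to 208253959 in IDH1-201) and has 4 annotated exons, against 10. WDPCP, on the opposite strand over MDH1, averaged 986 reads in treated and 953 in vehicle libraries.

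The third gene past the usage threshold was OGDH (adjusted p = 0.012). Its transcript with the smallest p, OGDH-205, held 0.560 to 0.789% in treated libraries, against 1.03 to 1.41% in vehicle replicates 3 to 5 and 9.52% in vehicle replicate 2. OGDH did not pass in 6 of the 13 alternatives, which were the replicate block, limma's test and the analyses without vehicle replicate 2 or without treated replicate 2, 3 or 4. None of the 3 genes had a transcript whose share differed by 10 points or more. Such shifts stood in 6 genes that did not pass (DLD, GPD2, ME2, OGDHL, PC and SDHA), and how many of all genes held one was not counted. The widest was in the scarce OGDHL, where OGDHL-203 held 5.04 ± 10.1% in treated and 33.1 ± 22.5% in vehicle libraries, with overlap, and OGDHL-201 held 61.5 ± 7.64% in treated and 37.8 ± 12.4% in vehicle libraries, without overlap. The adjusted p of OGDHL was 0.48, and of the 13 alternatives it passed only without treated replicate 3. ME2-217, annotated as a target of nonsense-mediated decay, held 24.9 ± 1.61% in treated and 7.47 ± 4.16% in vehicle libraries (adjusted p of ME2 = 0.28, and ME2 passed without vehicle replicate 2), and SDHA-201 held 32.8 ± 5.59% in treated and 49.8 ± 7.06% in vehicle libraries (adjusted p of SDHA = 0.59). PC-206, a transcript annotated as not coding, held 17.9 ± 2.47% in treated and 4.44 ± 2.40% in vehicle libraries (adjusted p of PC = 0.059, and PC passed without vehicle replicate 2 and in 3 other alternatives). These transcripts were picked after their values were seen. The usage test carries no uncertainty from dividing reads among transcripts, and limma's usage test, added later, called 11 of the 28 genes, with MDH1, IDH1, PC and SDHA among them and without OGDH. PDHX did not pass the usage test of edgeR (adjusted p = 0.44). It passed without vehicle replicate 2 (edgeR adjusted p = 0.0054) and in limma's test.

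**Figure D5:**
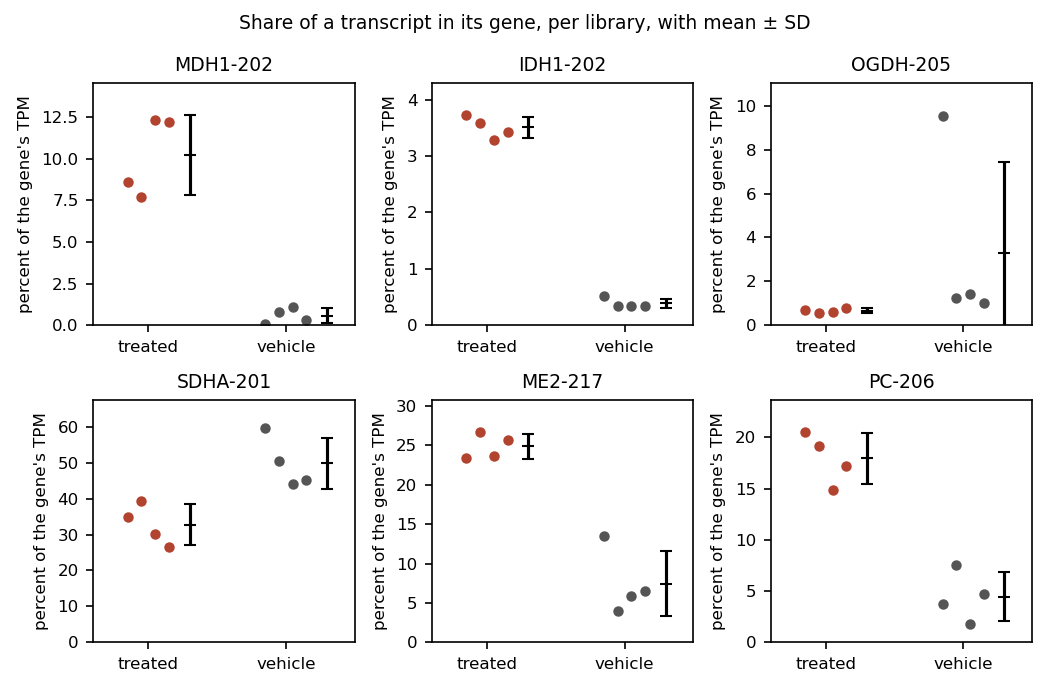
Share of 6 transcripts in the TPM of their gene in each library, treated left (red) and vehicle right (grey), with the mean and SD (n = 4). MDH1-202 lies at 7.70 to 12.3% in treated against 0.0963 to 1.07% in vehicle libraries, and the vehicle spread of OGDH-205 comes from vehicle replicate 2 at 9.52%.

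The authors' deposited table of coding genes lists 29 of the 31 enzymes, without GPD1 and ME3, and calls 8 higher and 11 lower at a false discovery rate of 0.05, with 57.7% of its genes called. For 26 of the 29 its call was the same as here, and 0 calls had opposite directions. The authors' deposited table does not call CS and PDHX, and it calls SDHC lower (log2 fold change -0.21). Its log2 fold change was 4.89 for PCK2 and 1.47 for ME1.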

How the data were processed

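Estimated counts, effective lengths and TPM per gene and per transcript were deposited by the authors for each library, per the file headers. The sources used here name no quantifier. HISAT2, SAMtools, StringTie and hg38 are named, without roles, per the submitters' processing notes. For coding genes, the authors also deposited a signal per library in an unnamed unit, not used in any result, and a log2 fold change with a p-value and false discovery rate.

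Coordinates came from GENCODE release 29 and promoter windows from RefSeq (GRCh38.p14). Estimated counts were rounded, filtered with filterByExpr, scaled with TMM and tested in edgeR 4.0.16 (R 4.3.3) by the quasi-likelihood F-test with no covariate, over all 8 libraries, with Benjamini-Hochberg adjustment over all genes tested. An SE is the size of the log2 fold change over the square root of F. CPM uses TMM-scaled library sizes. Transcript usage was tested with diffSpliceDGE and Simes p-values per gene. On simulated counts, 100% of 100 well-read genes changed by a log2 of 1 and 87% of 100 changed by 0.5 were called. There were 7 false calls among 19566 genes. In this simulation few genes changed, rises and falls were balanced, the spread was fixed and no library stood apart. The data differ in the share of genes called and in vehicle replicate 2, so these figures are not error rates of the results. The usage simulation kept only transcripts with at least 50 reads in all 8 libraries, a stricter limit than in the results. In each changed gene, 1 transcript was raised by a log2 of 1. The usage test found 94% of 200 changed genes among 7813, with 35 false calls. These were 15.7% of its calls on simulated counts, more than the adjusted p threshold of 0.05 allows. Usage calls in the data may therefore hold more false ones than that threshold states. Alternatives used limma 3.58.1 and DESeq2 1.42.0.

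All 31 enzymes are named. From each list of related genes come up to 3 higher and 3 lower genes with the smallest adjusted p. The members and the lists were chosen with earlier results of these data known. TPM ratios between subunits were chosen after values were seen and carry no test. Of the enzymes, 11 overlap a gene on the opposite strand that has reads. Intervals and tests cover the spread between 4 libraries per group.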

Additional observations from a re-analysis of the deposited data

Results flagged for a closer look

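Among 60 groups of 4 libraries (30 tested enzymes, treated and vehicle), 7 held a library far from the others, its gap to the nearest neighbour exceeding Dixon's 95% critical share of the range. Chance flags about 1 group in 20. Vehicle replicate 2, the library rich in mitochondrial mRNA, was the lowest for DLST at 79.1 CPM (others 109 to 113 CPM) and the highest for IDH3G at 36.1 CPM (others 29.3 to 29.8 CPM). Vehicle replicate 4 was the highest for DLD at 117 CPM (others 110.3 to 111 CPM), and vehicle replicate 3 the highest for PCK2 at 1.20 CPM (others 0.890 to 0.942 CPM). Treated replicate 5 was the lowest for PC at 23.8 CPM (others 29.4 to 30.3 CPM) and for GPD1 at 0.115 CPM (others 0.200 to 0.213 CPM). Treated replicate 4 was the lowest for ME1 at 18.6 CPM (others 21.1 to 21.4 CPM).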

How the results depend on the processing

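Of the 20 called enzymes, 14 kept direction and call in all 17 alternatives, and CS, PDHX, MDH2, SDHB, SUCLG1 and SDHA lost the call in at least 1. With library totals in place of TMM, 5 enzymes were higher and 13 lower, the median log2 fold change of all genes was -0.12, and 37.9% of all calls were higher, against 47.8% with TMM. With no filter on low counts 6 were higher, and the cause was not tested. Leaving out 1 library gave 7 to 10 higher and 10 to 14 lower enzymes, with 14 lower without vehicle replicate 2. Values near 0 changed sign. With library totals, IDH3B was at -0.037, SUCLA2 at -0.028 and GPD1 at -0.055, and SDHC was at 0.012 with an effective length offset. IDH1 was at 0.0075 with RLE scaling and at 0.0075 with DESeq2. Without single libraries, IDH1 ranged from -0.052 to 0.0090 and GPD1 from -0.10 to 0.21. The usage test called 486 to 1235 genes and 2 to 5 enzymes without single libraries (5 without vehicle replicate 2), and limma's usage test called 3360 genes and 11 enzymes. Deviations of same-numbered libraries from their group mean correlated at -0.08 to 0.03, and 0 of 4 correlated best with their own number. Vehicle replicate 2 shifts the mean of its group, so this check showed no pairing but cannot exclude a shared batch. With the number as a replicate block, 8 enzymes were higher and 11 lower, 5163 genes were higher and 5601 lower, and the usage test called 645 genes and 2 enzymes. Of 799 single-gene values under an alternative, 733 kept direction and call.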
